A study of Mus musculus with 10 samples.

Results

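The circadian clock genes described here are the 10 rows of the deposited expression table whose gene symbol is Arntl, Clock, Per1, Per2, Per3, Cry1, Cry2, Dbp, Nr1d1 or Nr1d2, out of 18464 genes in all. They were chosen by name, each symbol has 1 row, and all 10 passed the filter on low counts. The table holds polyA RNA-seq of 10 libraries from the ventral midbrain (SNpc/VTA, the region of the midbrain dopamine neurons) of naive Aldh1l1-NuTRAP mice, with no drug treatment in any group. In this strain ribosomes carry a tag in cells that use the promoter of Aldh1l1, a gene that in brain is used mostly by astrocytes, and translating ribosome affinity purification (TRAP) recovers the RNA on those ribosomes. The 5 input libraries hold RNA of all cell types, and the 5 libraries titled posfxn, labelled as astrocytes and called the astrocyte fraction here, hold the purified RNA. Each title starts with a number, 88, 92, 976, 981 or 982, shared by 1 input and 1 fraction library. The sources used here do not say whether a number is 1 animal or a pool, nor give age, sex or the time of day at which brains were taken. The p-values therefore measure the spread between these libraries. The fraction shows RNA bound to ribosomes and the input shows total polyA RNA, so the comparison also spans that difference.

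The clock of mammalian cells is a loop of transcription and delayed repression that most cells run, astrocytes included. The proteins of Clock and Arntl (also called Bmal1) bind DNA together at E-box sequences and switch on the Per and Cry genes, whose proteins return to the nucleus and block them. The same pair switches on Nr1d1 and Nr1d2, which encode the REV-ERB repressors of Arntl, and Dbp, a factor that carries the rhythm to other genes through D-box sequences. Transcripts of Dbp, Nr1d1 and the Per genes therefore peak at another time of day than Arntl. In brain outside the central pacemaker, astrocytes and neurons each have such a clock.

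Levels are in CPM, the deposited expected counts scaled for depth with TMM factors, and the values of libraries are always given in the order 88, 92, 976, 981 and 982. Totals were 21812193 to 30878894 expected counts in the input, 24479136 to 26924406 in 4 fraction libraries and 3845554 in the fraction library 92. That shallow library still held between 73 (Per2) and 1217 (Dbp) counts of each clock gene. All 12 astrocyte markers were higher in the fraction, where their summed level was 22026 to 32420 CPM against 3631 to 3943 in the input. All 8 neuron, 4 dopamine neuron, 6 oligodendrocyte, 6 microglia, 4 mural and 3 red blood cell markers were lower, while 3 of 6 endothelial markers were lower and 3 were not called. The neuron markers summed to 5520 to 6346 CPM in the input and still to 1368 to 1722 CPM in the fraction, and the microglia markers to 11.5 to 16.6 CPM there. Of 6 listed ependymal and choroid plexus markers, Folr1 and Kcnj13 are not analysed here and the other 4 were not called. Their sum was 19.1 to 3234 CPM in the input and 75.4 to 12345 in the fraction, with both libraries of the numbers 976 and 982 high. Fewer cells of a type and less RNA per cell cannot be told apart in such samples.

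In the astrocyte fraction, 6 of the 10 clock genes were higher, 1 was lower and 3 were not called, at an adjusted p under 0.05 by edgeR's quasi-likelihood test with Benjamini-Hochberg adjustment over all genes tested. The 3 largest gains were those of Dbp, the output factor (2.90-fold), Cry1, a repressor (2.78-fold), and Nr1d1, a REV-ERB receptor (2.41-fold). Arntl, Nr1d2 and Cry2 rose by smaller amounts, Clock fell, and the 3 Per genes were not called. The background is high, since 70.6% of 17672 tested genes were called, 33.1% as higher and 37.5% as lower. The median log2 fold change of the 10 genes was 0.41, beside -0.06 for all genes tested. In 3 of the 10 (Dbp, Cry1 and Nr1d1) the ranges of the groups did not overlap, as in 58.3% of all genes tested. Scaling by total counts instead of TMM factors moved the median of all genes to -0.34, and then 3 clock genes were higher (Dbp 1.25, Cry1 1.19, Nr1d1 0.98) and 3 lower (Per2 -0.58, Clock -0.56, Per1 -0.36), with 24.3% of all genes higher and 47.1% lower. Without the numbers 976 and 982, 6 clock genes were higher and 0 lower, the call of Clock being lost (-0.18, adjusted p = 0.244), with 32.9% of all genes higher and 32.8% lower.

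**Figure D1:**
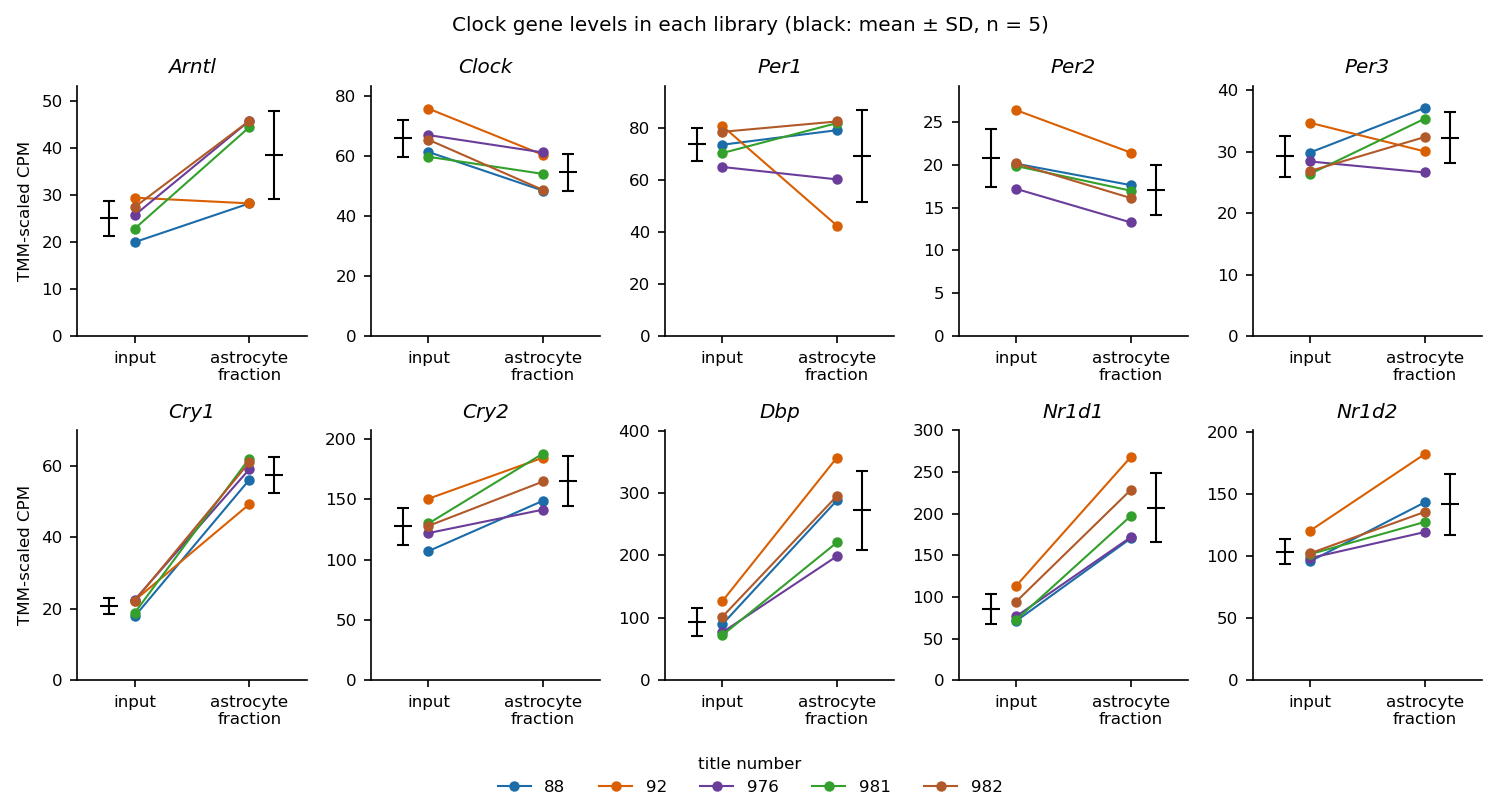
TMM-scaled CPM (linear axis from 0) of the 10 clock genes in each input and astrocyte fraction library, with a line for each title number and the mean ± SD of 5 libraries in black. For Dbp, Nr1d1 and Cry1 every fraction library lies above every input library, and the line of number 92 (orange) is the highest of both groups for Dbp, Nr1d1, Nr1d2 and Per2.

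Compared per kilobase of exon (the union of exons in GENCODE M21), the order of levels in the input ran from Dbp (31.2 ± 7.32 CPM per kilobase, SD, n = 5) and Nr1d1 (27.8 ± 5.87) through Cry2 (20.2 ± 2.48) and Nr1d2 (19.2 ± 1.798) to Per1 (13.1 ± 1.13). Below them stood Cry1 (6.21 ± 0.663), Clock (4.79 ± 0.457), Per2 (3.54 ± 0.579), Arntl (3.33 ± 0.497) and Per3 (3.04 ± 0.348). The ranges of neighbours in this order overlapped except between Nr1d2 and Per1 and between Per1 and Cry1. In the astrocyte fraction the order per kilobase was Dbp (90.9 ± 21.1), Nr1d1 (67.3 ± 13.5), Nr1d2 (26.2 ± 4.52), Cry2 (26.2 ± 3.29), Cry1 (17.2 ± 1.54), Per1 (12.3 ± 3.12), Arntl (5.12 ± 1.25), Clock (3.97 ± 0.445), Per3 (3.36 ± 0.435) and Per2 (2.92 ± 0.502). There the ranges of Dbp and Nr1d1 overlapped, as did those of Nr1d2 and Cry2, and those of each neighbour from Arntl to Per2. Cry1 thus stood below Per1 in the input and above it in the fraction, with no overlap in either group.

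RefSeq promoter windows (GRCm38.p6, the assembly of mm10) were matched for 9 of the 10 genes, as 13 windows of the 250 bases before a transcript start. Both strands were searched for the E-box CACGTG, the weaker E′-box CACGTT, the D-box TTATGTAA and its variant TTACGTAA, the half-site AGGTCA bound by ROR and REV-ERB, and the cAMP response element TGACGTCA, and no matches overlapped each other. The E-box was found for 2 genes (Per1 and Cry1) and is held by 6.02% of all 32851 windows. Percentages are of single windows, whereas a gene counts with a match in any of its windows, up to 3 for Clock, so the units differ. The E′-box was found for 3 (Cry1, Cry2 and Nr1d1; 3.85% of all windows), the D-box for 1 (Per3; 0.819%) and the half-site for 3 (Clock, Per1 and Nr1d2; 14.02%). The D-box variant (0.113%) and the cAMP response element (1.55%) were found for 0. The window of Dbp held none of these motifs. Part of it lies inside the deposited gene model of Dbp, and a window each of Arntl, Clock, Cry1 and Nr1d2 also lies partly inside the gene's own model. The windows with the matches of Per1 (chr11:69098699-69098948) and Clock (chr5:76303503-76303752) lie wholly inside the models of these genes. The windows of the cryptochromes and of Nr1d1, genes whose enrichment is set against that of a relative below, and of Per3, with 2 D-boxes, read as follows, with motif matches in capitals (a match on the other strand appears as its reverse complement, so that CACGTT reads AACGTG).
Cry1 (chr10:85185055-85185304, minus strand): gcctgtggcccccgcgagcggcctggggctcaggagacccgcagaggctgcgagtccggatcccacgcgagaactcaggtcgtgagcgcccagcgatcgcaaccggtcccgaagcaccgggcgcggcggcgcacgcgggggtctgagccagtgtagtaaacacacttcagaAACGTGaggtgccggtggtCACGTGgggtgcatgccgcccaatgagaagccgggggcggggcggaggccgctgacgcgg
Cry2 (chr2:92434070-92434319, minus strand): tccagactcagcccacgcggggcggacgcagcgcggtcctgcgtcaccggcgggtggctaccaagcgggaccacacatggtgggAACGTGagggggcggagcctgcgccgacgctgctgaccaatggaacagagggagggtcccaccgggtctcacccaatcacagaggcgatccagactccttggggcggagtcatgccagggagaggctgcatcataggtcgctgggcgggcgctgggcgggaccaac
Nr1d1 (chr11:98775378-98775627, minus strand): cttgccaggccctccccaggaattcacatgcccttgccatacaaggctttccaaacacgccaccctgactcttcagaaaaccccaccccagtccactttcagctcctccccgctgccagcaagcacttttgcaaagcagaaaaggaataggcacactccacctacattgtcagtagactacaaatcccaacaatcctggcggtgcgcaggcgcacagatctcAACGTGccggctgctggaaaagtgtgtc
Per3 (chr4:151044666-151044915, minus strand): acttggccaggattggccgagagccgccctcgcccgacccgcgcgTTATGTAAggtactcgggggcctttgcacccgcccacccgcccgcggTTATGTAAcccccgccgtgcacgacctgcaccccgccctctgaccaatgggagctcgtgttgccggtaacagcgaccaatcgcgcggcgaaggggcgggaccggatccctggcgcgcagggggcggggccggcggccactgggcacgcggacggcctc
Cry1 has an E′-box and, closer to the start, an E-box, while Cry2 has an E′-box alone. The E-box of Cry1 ends 55 bases before the start and the E′-box of Nr1d1 ends 23 bases before it. A match in these letters is a description of the window and not a measured site.

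Arntl and Clock encode the paired activators, and they moved in opposite directions. Arntl (ENSMUSG00000055116, chromosome 7, 113207465 to 113314126, plus strand) was at 19.98, 29.4, 25.7, 22.8 and 27.4 CPM in the input and at 28.2, 28.2, 45.8, 44.4 and 45.8 CPM in the fraction. The fraction libraries 976, 981 and 982 lay above all inputs, whereas 88 and 92 lay inside the input range. Arntl rose by 0.63 ± 0.19 in log2 (SE, edgeR adjusted p = 0.00416), its mean going from 25.1 ± 3.74 to 38.5 ± 9.38 CPM (SD, n = 5), and it was higher in the fraction in 4 of 5 numbers. Scaled to total counts the value was 0.35 and the call was lost (adjusted p = 0.0766). Clock (ENSMUSG00000029238, chromosome 5, 76209868 to 76304792, minus strand) was at 61.3, 75.7, 66.9, 59.7 and 65.3 CPM in the input and at 48.4, 60.3, 61.1, 53.96 and 48.6 CPM in the fraction. Every fraction library was below its own input, but the groups overlapped, since the fraction libraries 92 and 976 lay above the lowest input. Clock fell by 0.28 on the log2 scale, to 82.5% of the input level (SE 0.09, adjusted p = 0.0171). That call was lost without the fraction library 88 (adjusted p = 0.0566) or the fraction library 982 (adjusted p = 0.0563). The ratio of Arntl to Clock inside a library needs no depth scaling. It was 0.327 to 0.421 in the input and 0.469 to 0.941 in the fraction, a difference of 0.87 ± 0.19 in log2 (SE, n = 5 per group), with all 5 numbers higher in the fraction. The exact two-sided permutation test over libraries gave p = 0.00794, the smallest that 5 against 5 allows, and 0.0159 when adjusted over the 6 pairs of related genes tested in this way. With libraries paired by number, the exact sign-flip permutation test cannot go below 0.0625, and its adjusted p was 0.075 for this pair. It was 0.075 too for the pairs of Cry1 and Cry2, Nr1d1 and Nr1d2, Per2 and Per3, and Per1 and Per3 below.

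The cryptochromes Cry1 and Cry2 encode the main repressors of the activator pair, and Cry1 gained more than Cry2. Their promoter windows are printed above. Cry1 (ENSMUSG00000020038, chromosome 10, 85131700 to 85185064, minus strand) was at 17.9, 22.3, 22.5, 18.8 and 22.2 CPM in the input. In the fraction it was at 56.1, 49.3, 59.04, 62.1 and 60.99 CPM, so that the lowest fraction library exceeded the highest input more than 2-fold. Cry1 rose by 1.47 ± 0.09 in log2 (adjusted p = 2.08e-08), its mean going from 20.7 ± 2.21 to 57.5 ± 5.13 CPM. Cry2 (ENSMUSG00000068742, chromosome 2, 92403646 to 92434043, minus strand) was at 107.1, 150.6, 122.1, 130.0 and 128.0 CPM in the input and at 148.9, 184.6, 141.5, 188.1 and 164.9 CPM in the fraction. It was higher in the fraction in 5 of 5 numbers, while the groups overlapped through the input 92 and the fraction libraries 88 and 976. Cry2 rose by 0.37 ± 0.11 in log2 (adjusted p = 0.00615), its mean going from 127.6 ± 15.7 to 165.6 ± 20.8 CPM, and was not called with total count scaling (0.09, adjusted p = 0.405). The ratio of Cry1 to Cry2 went from 0.145 to 0.185 in the input to between 0.267 and 0.418 in the fraction. This was a difference of 1.09 ± 0.13 in log2, or 2.13-fold (exact permutation p = 0.00794, adjusted over 6 pairs 0.0159).

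The period genes Per1, Per2 and Per3 encode the partners of the cryptochromes, and none was called. Per1 (ENSMUSG00000020893, chromosome 11, 69095217 to 69109960, plus strand) was at 73.6, 80.9, 65.04, 70.4 and 78.6 CPM in the input and at 79.2, 42.5, 60.3, 81.9 and 82.5 CPM in the fraction. The fraction libraries 981 and 982 were just above the input range, 88 was inside and 976 just below it, and the fraction library 92, with 145 counts, was far below all others. The value of Per1 was -0.07 ± 0.19 in log2 (adjusted p = 0.683), and it became 0.06 without the fraction library 92 and also 0.06 without the fraction library 976. Per2 (ENSMUSG00000055866, chromosome 1, 91415982 to 91459324, minus strand) was at 20.1, 26.4, 17.2, 19.9 and 20.2 CPM in the input and at 17.6, 21.4, 13.3, 16.98 and 16.1 CPM in the fraction. It was lower in the fraction in 5 of 5 numbers with overlapping groups, at -0.30 ± 0.15 in log2 (adjusted p = 0.0757). With the title number as a block Per2 was called lower (-0.28, adjusted p = 0.0201), and so it was without the fraction library 92 (-0.36, adjusted p = 0.0267) or the input 976 (-0.35, adjusted p = 0.0467). Per2 was also called lower with total count scaling (-0.58, adjusted p = 0.00137) and with a filter at a mean of 5 CPM (-0.39, adjusted p = 0.0238). In the other 12 of 17 alternatives Per2 was not called. Per3 (ENSMUSG00000028957, chromosome 4, 151003652 to 151044665, minus strand) was at 29.9, 34.7, 28.4, 26.4 and 26.8 CPM in the input and at 37.1, 30.03, 26.6, 35.3 and 32.4 CPM in the fraction. Per3 stood at 0.15 ± 0.11 in log2 (adjusted p = 0.259) and was called higher without the fraction library 976 (0.29, adjusted p = 0.0312). With total count scaling it changed sign (-0.14, not called).

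Among the period genes, Per2 and Per3 differed in their enrichment by the unpaired test. The ratio of Per2 to Per3 was 0.606 to 0.761 in the input and 0.476 to 0.716 in the fraction, a difference of -0.42 ± 0.13 in log2 (exact permutation p = 0.0238, adjusted 0.0357). It was above 0.05 when the fraction library 88, 976 or 981 was left out (adjusted exact permutation p = 0.0595 in each case). The difference was 0.15 ± 0.26 between Per1 and Per2 (exact permutation p = 0.619, adjusted 0.619) and -0.27 ± 0.16 between Per1 and Per3 (p = 0.103, adjusted 0.124). The ratio of Per1 to Per3 was higher in the fraction in 0 of 5 numbers. With libraries paired by number, the adjusted p of the sign-flip test was 0.075 for Per1 and Per3, as for Per2 and Per3. Without the fraction library 92 the difference between Per1 and Per2 was 0.40 (adjusted exact permutation p = 0.00952), and without the fraction library 982 that between Per1 and Per3 was -0.34 (adjusted exact permutation p = 0.0238). Both comparisons of Per1 thus changed call with a single fraction library.

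The REV-ERB receptors Nr1d1 and Nr1d2 encode repressors of Arntl, and both rose, Nr1d1 by more. Nr1d1 (ENSMUSG00000020889, chromosome 11, 98767932 to 98775333, minus strand) was at 71.1, 113.3, 76.7, 72.5 and 94.3 CPM in the input and at 170.3, 267.9, 171.7, 197.2 and 228.5 CPM in the fraction. The groups did not overlap, and number 92 was the highest library of each. Nr1d1 rose by 1.27 ± 0.18 in log2 (adjusted p = 1.28e-05), its mean going from 85.6 ± 18.1 to 207.1 ± 41.4 CPM. Of its exon bases 8.55% also belong to Thra, a thyroid hormone receptor gene that runs the other way. The sources used here do not give the strand setting of the counting, so part of the Nr1d1 count is uncertain. Thra itself was at 564.4, 433.1, 543.9, 543.0 and 505.1 CPM in the input and 760.5, 614.7, 572.7, 763.0 and 614.0 CPM in the fraction (0.36 in log2, adjusted p = 0.00688). Nr1d2 (ENSMUSG00000021775, chromosome 14, 18204054 to 18239127, minus strand) was at 95.9, 120.6, 98.5, 101.7 and 102.4 CPM in the input and at 143.5, 182.4, 119.5, 127.7 and 135.8 CPM in the fraction. All 5 numbers were higher in the fraction, and only the input 92 reached into the fraction's range. Nr1d2 rose by 0.44 ± 0.12 in log2 (adjusted p = 0.00282), its mean going from 103.8 ± 9.73 to 141.8 ± 24.4 CPM, and was not called with total count scaling (0.16, adjusted p = 0.177). The ratio of Nr1d1 to Nr1d2 was 0.713 to 0.940 in the input and 1.19 to 1.68 in the fraction, below 1 in every input and above 1 in every fraction library. The difference was 0.84 ± 0.12 in log2, or 1.79-fold (exact permutation p = 0.00794, adjusted 0.0159).

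**Figure D2:**
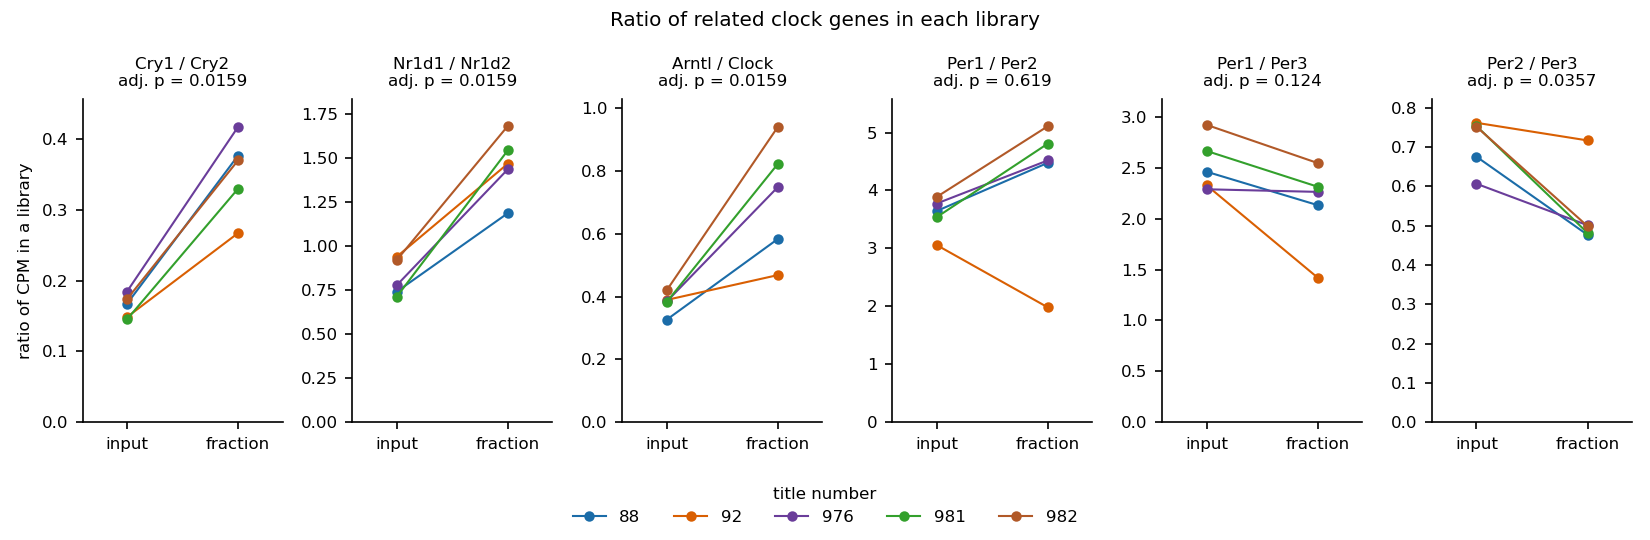
Ratio of the CPM of related clock genes inside each library (linear axis from 0), input against astrocyte fraction, with a line for each title number and the exact permutation p adjusted over 6 pairs above each panel. All 5 lines rise for Cry1 over Cry2, Nr1d1 over Nr1d2 and Arntl over Clock, and the low fraction point of Per1 over Per2 is library 92.

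Dbp, the output factor of the loop, was with Cry1 one of the 2 most enriched of the 10 genes. Their fold changes differed by less than the SE of Dbp, and their order turned without the fraction library 92 (Cry1 1.53, Dbp 1.44) or the input 976 (Cry1 1.51, Dbp 1.48). Dbp (ENSMUSG00000059824, chromosome 7, 45705088 to 45710203, plus strand) was at 89.6, 126.8, 76.8, 72.2 and 101.6 CPM in the input and at 288.5, 357.1, 198.9, 221.0 and 295.4 CPM in the fraction. The lowest fraction library, 976, exceeded the highest input, 92. Dbp rose by 1.54 ± 0.21 in log2 (adjusted p = 1.25e-05), its mean going from 93.4 ± 21.9 to 272.2 ± 63.3 CPM. Within numbers its log2 ratio of fraction to input was 1.69, 1.49, 1.37, 1.61 and 1.54. On the same log2 scale its level ran from -0.34 to 0.47 around the mean of the inputs (a 1.76-fold spread). In the fraction it ran from -0.42 to 0.42 around the mean (1.795-fold), so the ratio varied less than the level. Of the exon bases of Dbp 18.01% also belong to Sphk2, a sphingosine kinase gene that runs the other way, so its count is uncertain in the same way. Sphk2 was lower than Dbp, at 33.8 to 53.7 CPM over the 10 libraries. For comparison, the 12 astrocyte markers had a median log2 fold change of 3.07, above every one of the 10 clock genes, and the 8 neuron markers one of -2.30, below every one of them.

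The 37 other clock genes, taken from 8 lists of roles, divided in both directions, with 19 higher, 11 lower and 7 not called and a median log2 fold change of 0.17. The shares of all genes tested were 33.1% higher and 37.5% lower. With total count scaling 12 were higher and 17 lower (median -0.11), beside 24.3% and 47.1% of all genes. The fit with the title number as a block called 19 as higher and 13 as lower (33.3% and 38.7% of all genes), and without the numbers 976 and 982 they were 19 and 9 (32.9% and 32.8%). Both other activators were called, Npas2, the relative of Clock, as higher (0.70, adjusted p = 0.00119) and Arntl2, the relative of Arntl, as lower (-3.21, adjusted p = 1.79e-07). Arntl2 went from 5.85 ± 1.58 to 0.563 ± 0.136 CPM, in a fraction where 3 counts are worth 0.1196 to 0.880 CPM per library. Among the ROR receptors, which bind the same DNA elements as REV-ERB and activate there, Rorb rose (0.75, adjusted p = 0.00114). Rora had a value of -0.50 (adjusted p = 0.0510). It was called lower with the block (-0.46, adjusted p = 7.58e-04), by DESeq2's Wald test (-0.51, adjusted p = 0.0234) and with a filter at a mean of 5 CPM (-0.59, adjusted p = 0.0229). Rora was also called lower with total count scaling, as given below. The same held without the input 88 (-0.62, adjusted p = 0.0137), the input 981 (-0.57, 0.0409) or the fraction library 92 (-0.60, 0.0292).

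Among the relatives and the competitor of Dbp at D-box sequences, Hlf rose (0.51, adjusted p = 0.0129; 0.22 and not called at 0.192 with total count scaling) and the competing repressor Nfil3 fell (-1.46, adjusted p = 0.00124). Tef had a value of 0.01 (adjusted p = 0.889). Of 4 other repressors, Bhlhe41 (1.15), Bhlhe40 (0.996) and Cipc (0.47) rose and Ciart (-1.13) fell. For Bhlhe41, 19.05% of exon bases also belong to a gene that runs the other way, and for Gsk3a, below, 28.3%. Of 8 kinase and phosphatase genes that act on clock proteins, 5 were higher and 2 lower, with Csnk2a1 (0.71) up and Csnk1e (-0.81) and Gsk3a (-0.71) down. Among the ubiquitin ligase genes, Fbxw11 rose (0.81), while Btrc (-0.65) and Huwe1 (-1.23) fell. Of 8 partners and corepressors, 4 were higher and 1 (Timeless, -0.68) lower, the higher ones with the smallest adjusted p being Tipin (1.55), Nono (0.59) and Sfpq (0.33). Of 4 common outputs, Usp2 rose (1.43) and Noct (-1.40), Wee1 (-0.96) and Nampt (-0.34) fell. With total count scaling 7 of the 19 higher calls were lost, among them Sfpq (0.05, adjusted p = 0.587) and Hlf, and 6 genes became lower, among them Rora (-0.79, adjusted p = 0.00334) and Tef (-0.28, adjusted p = 0.00196). Without the numbers 976 and 982 the calls of Nampt (-0.24, adjusted p = 0.102) and Timeless (-0.70, adjusted p = 0.0512) were lost.

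**Figure D3:**
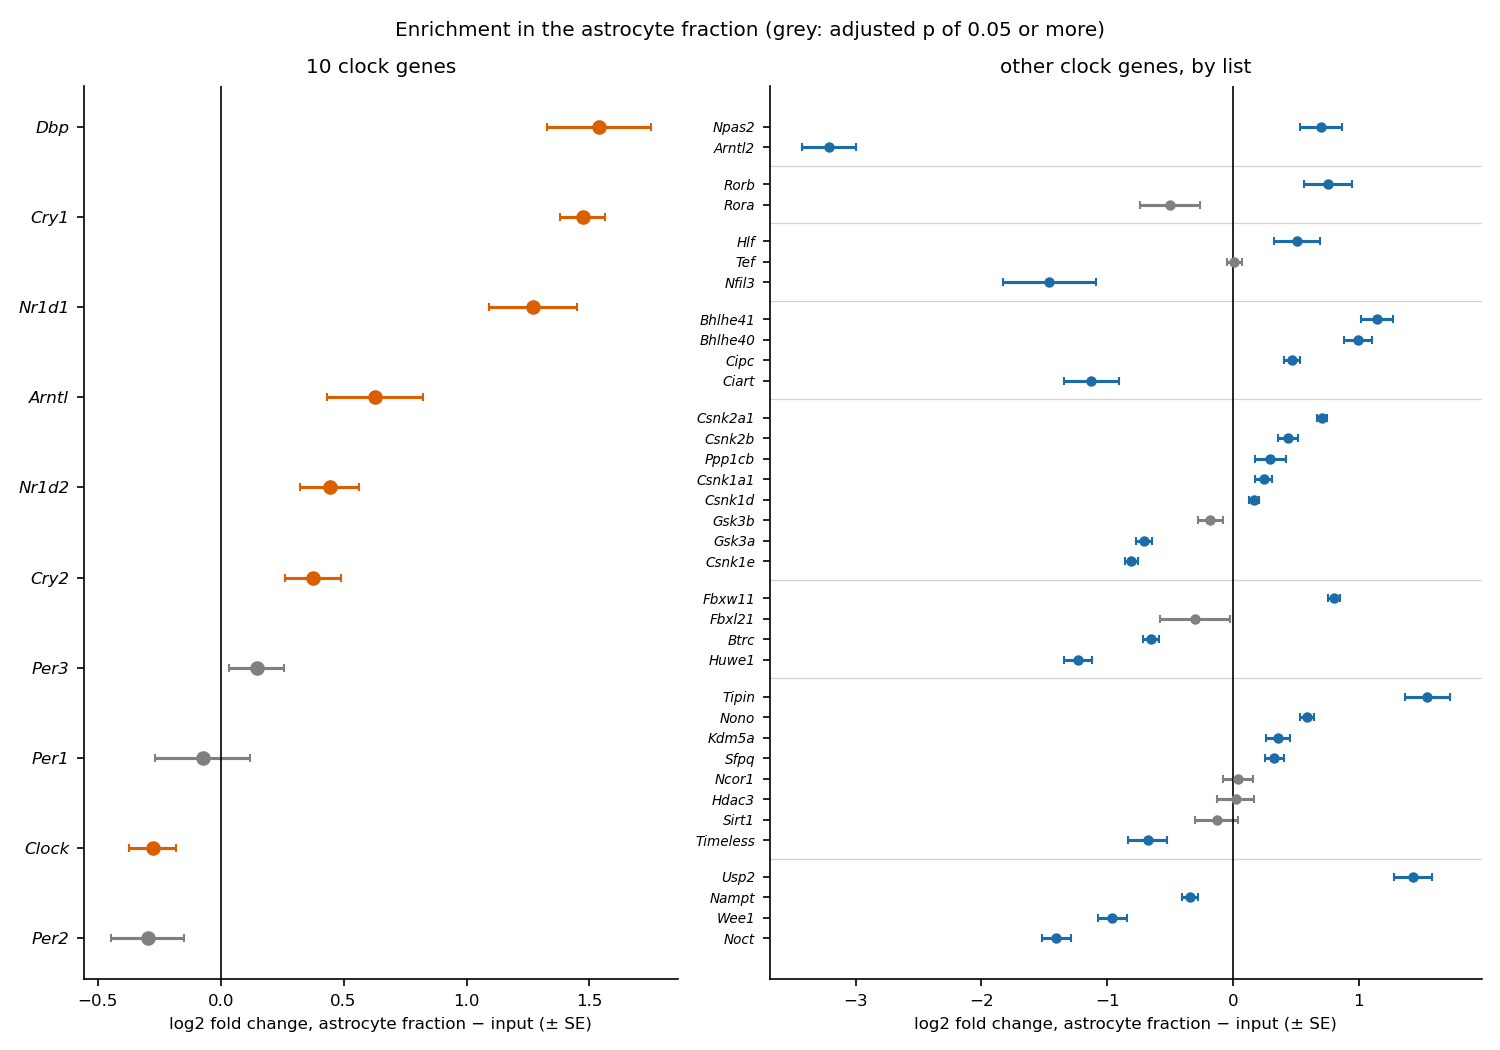
Log2 fold change of astrocyte fraction against input ± SE for the 10 clock genes (left) and for other clock genes in 8 lists separated by lines (right); coloured points passed an adjusted p of 0.05 by edgeR and grey points did not. Dbp, Cry1 and Nr1d1 stand apart at the top of the left panel, and the right panel spans from Arntl2 at -3.21 to Tipin at 1.55.

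Dbp and Nr1d1 also differed between title numbers, by a pattern shared by the input and the fraction of a number. The model with group and number tested each transcript for a difference between the 5 numbers that is common to both groups (edgeR quasi-likelihood F-test of the number term, adjusted over all genes). Dbp (adjusted p = 0.00349) and Nr1d1 (adjusted p = 0.00851) were called, 2 of 10, against 4.26% of all genes tested. The fitted values of Dbp spanned 0.78 in log2 between the highest and the lowest number, or 1.72-fold, and those of Nr1d1 0.66, or 1.58-fold. The median range was 0.42 over the 10 clock genes and 0.45 over all genes tested, which include genes of low level. With a filter at a mean of 5 CPM it was 0.43 over the clock genes and 0.34 over all genes. Cry2 (range 0.40, adjusted p = 0.154), Nr1d2 (0.45, adjusted p = 0.161) and Per2 (0.65, adjusted p = 0.185) were not called over all genes. DESeq2's likelihood ratio test called Cry2 (adjusted p = 0.0241) and Nr1d2 (adjusted p = 0.0385) as well, 4 of 10 clock genes, beside 9.96% of all genes. With Dbp and Nr1d1, Cry2, Nr1d2 and Per2 are the 5 of 10 clock genes with an unadjusted p under 0.05, against 16.4% of all genes. Without number 92 the ranges of Cry2, Nr1d2 and Per2 fell to 0.31, 0.12 and 0.32 (edgeR F-test, adjusted p = 0.304, 0.865 and 0.513). For Arntl (0.58), Clock (0.31), Per1 (0.36), Per3 (0.27) and Cry1 (0.21) the adjusted p ran from 0.429 to 0.887. The Dbp call held without each number in turn (adjusted p up to 0.0355), though its range fell to 0.49 without number 92, and the Nr1d1 call was lost without number 92 (range 0.42, adjusted p = 0.101). Both calls were lost in limma on the authors' normalized log2 values (Dbp 0.81, adjusted p = 0.344, and Nr1d1 0.69, adjusted p = 0.378), where 4 genes were called in all.

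For Dbp and Nr1d1 the numbers stood in nearly the same order in both groups. Relative to the mean of its group in log2, Dbp was at -0.03, 0.47, -0.25, -0.34 and 0.15 in the input and at 0.12, 0.42, -0.42, -0.27 and 0.15 in the fraction. Number 92 was highest, 982 next and 976 and 981 lowest in both. Nr1d1 was at -0.24, 0.43, -0.13, -0.22 and 0.16 in the input and at -0.26, 0.39, -0.25, -0.05 and 0.16 in the fraction. It shared the high 92 and 982 with Dbp but was lowest in 88 in both groups. Over the 10 genes and 5 numbers, 37 of 50 deviations (74%) had the same sign in both groups, beside 58.4% over all genes tested. The input 92 was above the mean of the inputs for each of the 10 genes, so its height was not particular to Dbp and Nr1d1. The summed level of the 10 genes was 780.6 CPM there and 586.4 to 666.9 CPM over the other inputs. In number 92, 4 genes were above the mean in the input and below it in the fraction, namely Per1 (0.14 and -0.66), Arntl (0.24 and -0.41), Cry1 (0.11 and -0.22) and Per3 (0.25 and -0.10).

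**Figure D4:**
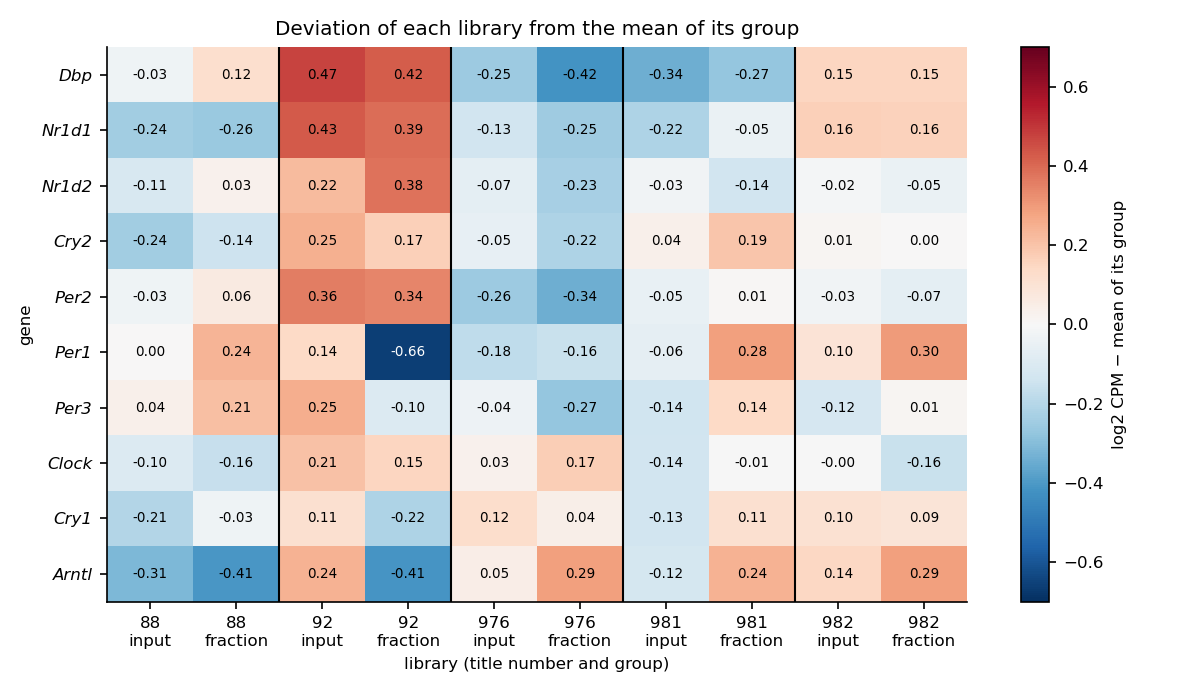
Deviation of log2 CPM from the mean of its group for each clock gene (rows) in each library (columns, input and fraction of a title number side by side; red above and blue below the mean). Both columns of number 92 are red for Dbp, Nr1d1, Nr1d2, Cry2, Per2 and Clock, while its fraction column is blue for Per1, Cry1, Arntl and, faintly, Per3.

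The ratio of Dbp to Arntl, genes that peak at different times of day, was computed inside each library. It was 4.47, 4.30, 2.98, 3.16 and 3.70 in the input and 10.2, 12.6, 4.34, 4.97 and 6.45 in the fraction. The numbers 976, 981 and 982 came in the same rising order in both groups and below 88 and 92, which changed places. The fraction libraries thus spanned a wider range than the inputs. The highest value, 12.6, is that of the shallow fraction library 92, with 96 counts of Arntl. Over the 10 libraries the deviations of Dbp and Arntl from their group means correlated at a Pearson's r of -0.23. This ratio is given as a description with no test.

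Among the other clock genes, Rora was called for the number term (range 0.89, adjusted p = 0.0211). It was at 154.7, 344.0, 213.1, 185.4 and 255.8 CPM in the input and 139.7, 214.8, 126.7, 161.7 and 174.9 CPM in the fraction, highest in number 92 of both groups. Rora was not called without number 92 (adjusted p = 0.243), without the fraction library 92 alone (0.0514) or in limma on the authors' values (0.437). Hlf had a range of 0.62 (adjusted p = 0.0712) and was called without number 976 (0.63, adjusted p = 0.0302). It was also called without the numbers 976 and 982 (0.64, adjusted p = 0.0102) and by DESeq2's likelihood ratio test (0.64, adjusted p = 0.00112). Rorb, with a range of 0.64 (adjusted p = 0.130), was called in the same alternatives (adjusted p = 0.0445, 0.0405 and 0.0146 in that order).

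Other transcripts differed between the numbers too, and their part in the pattern of the clock genes was not tested. All 4 dopamine neuron markers were called for the number term. Th, which encodes the enzyme that starts dopamine synthesis, was at 160.6, 229.4, 65.5, 310.5 and 75.6 CPM in the input, highest in 981, where Dbp was lowest, and lowest in 976. Of the ependymal and choroid plexus markers 3 of 4 were called, and Ttr was at 1.39, 0.334, 2965, 2.70 and 604.0 CPM in the input. Of the 12 astrocyte and 8 neuron markers 3 each were called. In number 92 the summed neuron markers were highest in the input (6346 CPM) and in the fraction (1722 CPM), and so were the summed astrocyte markers in the fraction (32420 CPM). Y-linked Ddx3y was at 45.96 to 105.3 CPM in all 10 libraries.

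The genes whose pattern over the libraries was most like Dbp were sought among 630 named genes with a mean of at least 5 CPM and a called number term. Likeness was Pearson's r of the deviations from group means over the 10 libraries, which come from 5 numbers, so it is a ranking and not a test. The highest were Rgs4, a regulator of G protein signalling (0.94), Mfap3l (0.92), the potassium channel gene Kcnq3 (0.90), Lrrc7 (0.90) and Cyp46a1, the brain cholesterol hydroxylase (0.89). Nr1d1 ranked 12 (0.82). Rgs4, Kcnq3, Lrrc7 and Cyp46a1 were lower in the fraction (log2 fold changes -2.66, -0.56, -2.85 and -1.90) and Mfap3l higher (2.14). Of these 5 genes, Mfap3l alone thus moved between the groups in the direction of Dbp. Rgs4 was at 235.6, 314.6, 186.0, 202.1 and 248.7 CPM in the input and 40.5, 61.9, 24.3, 29.7 and 36.6 CPM in the fraction. Among the most opposite were Pdk1 (-0.87), Slc16a9 (-0.86), Rsph9 (-0.86) and the ornithine decarboxylase gene Odc1 (-0.84). Most like Arntl among the same 630 genes were Tal1 (0.78), Kalrn (0.74), Slc30a3 (0.73), Zic5 (0.71) and Iqgap2 (0.69). Arntl itself had no called number term (edgeR F-test, adjusted p = 0.438), so genes closer to its pattern may have been left out of the ranking. The fraction library 92 held only 2 counts of Slc30a3, 6 of Tal1 and 7 of Iqgap2.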

How the data were processed

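The authors deposited 1 table of 18464 genes with, per the file headers, a raw and a normalized column for each of 10 libraries. The raw columns hold expected counts per gene, deposited by the authors without scaling, of which 4.94% to 31.1% per library were whole numbers to within 0.001. The normalized columns hold log2 values centred by the authors, by a method not given in the sources used here. CASAVA 1.8, DESeq and the build mm10 are named with no role, per the submitters' processing notes. Aligner, counter and strand setting: not given in the sources used here.

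Expected counts were rounded and fitted in edgeR 4.0.16 (R 4.3.3) with TMM scaling, filterByExpr at a minimum count of 10 (17672 genes kept, 792 removed) and the robust quasi-likelihood test with a prior count of 2. Calls use a Benjamini-Hochberg adjusted p under 0.05 over all genes. The number term has 4 degrees of freedom, and each number has 1 library per group, so no interaction could be fitted. SEs of log2 fold changes come from the log2 CPM of 5 libraries a group. The comparison of groups and the permutation tests were unpaired, and fits with the number as a block were alternatives. After removal of group means, libraries of the same number correlated across genes at 0.189 to 0.493, all above 0.1, so the numbers count as a pairing. Libraries of different numbers correlated at -0.317 to 0.302 (mean -0.0791), which overlaps that range, and the fraction library 982 correlated more with the input 976 (0.302) than with its own input (0.189). Related genes were compared by exact permutation of their log2 ratio (252 arrangements). Alternatives used limma 3.58.1 and DESeq2 1.42.0. Scripts were tested on simulated counts with known changes. In the comparison of groups, 20 of 100 genes changed by 0.5 in log2 and 63 of 98 changed by 1 were recovered. Of its calls 5.68% were false. For the number term, 35 of 99 genes with a range of 0.8 and 73 of 99 with a range of 2 were recovered. Of those calls 12.9% (16 genes) were false, more than the threshold of 0.05 aims at. A gene that was not called may still differ. Coordinates are those of the table, in mm10, and exon lengths come from GENCODE M21.

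The clock genes, lists and tests were chosen with earlier results of these data known. Named genes are the 10 clock genes, up to 3 called genes per other clock list by smallest adjusted p (all genes of lists of 3 or fewer), number-term calls of those lists, and the 5 genes most like Dbp or Arntl or most opposite to Dbp. Ciart, Btrc, Nampt, Timeless, Thra and Sphk2, and the number terms of Hlf and Rorb, fall outside that rule and were named after their values were seen. Some genes that the rule names are not reported here.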

Additional observations from a re-analysis of the deposited data

Results flagged for a closer look

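In the input, Nr1d2 stood at 121 CPM in library 92, above the next input, 982, at 102 CPM, and the other 4 inputs lay between 95.9 and 102 CPM. The gap made up 0.738 of the group's range, past Dixon's 95% critical value of 0.71 for 5 libraries. It was the 1 library so far from its group among the 20 sets of 5 libraries examined (10 genes in 2 groups), and chance alone gives about 1 in 20. The sets are not independent, since the 10 genes share the same libraries. The input 92 was above the mean of the inputs for each of these genes. In the fraction Nr1d2 was also highest in library 92 (182 CPM), with a gap of 0.619 of the range.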

How the results depend on the processing

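The count of genes called between fraction and input (12483) stayed within 1.5 times over its 17 alternatives (9452 to 13031). With the title number as a block it was 12728, and among the clock genes the block changed the call of Per2 (-0.28, called lower). The count called for the number term (752) was 1760 with DESeq2's likelihood ratio test, 4 with limma on the authors' normalized log2 values, 304 without the numbers 976 and 982, and 425 to 698 when a number or the fraction library 92 was left out, with 425 without number 88 and 453 without number 982. The cause was not tested. Among clock gene fold changes, Per3 turned to -0.14 with total count scaling, and Per1 to 0.06 without the fraction library 92 and to 0.0636 without the fraction library 976. Dbp, Nr1d1 and Cry1 kept direction and call in all 17 alternatives. Of 170 values of clock gene fold changes under alternatives, 154 kept direction and side of the threshold.

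Ratios of related genes kept their direction in all 13 alternatives. Paired by number, the differences of Per2 minus Per3 (-0.42), Cry1 minus Cry2 (1.09), Nr1d1 minus Nr1d2 (0.84) and Arntl minus Clock (0.87) were the same but their adjusted p was 0.075, since the smallest p that the exact sign-flip permutation of 5 pairs can give is 0.0625. Without the numbers 976 and 982 they were -0.41, 1.07, 0.81 and 0.74, where 3 against 3 cannot reach 0.05 either. Per1 minus Per3 (-0.27) also had an adjusted p of 0.075 in the sign-flip permutation paired by number. With 1 library left out, Per2 minus Per3 ranged from -0.53 to -0.38, Per1 minus Per2 from 0.0624 to 0.40 and Per1 minus Per3 from -0.34 to -0.13. The fraction library 92, with 3845554 counts, limits the precision of the less abundant genes.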

Other observations

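Immediate early genes, which cells switch on within minutes of activity and among which Per1 is sometimes counted, were mostly lower in the astrocyte fraction. Of 9 listed genes with data, 8 were called lower, 0 higher and 1 (Ier2) neither way, and their median was -1.52 in log2. Of all genes tested 37.5% were lower, and the 8 neuron markers, all lower, had a median of -2.30; their part in the result was not tested. Egr1 fell from 52.7 ± 9.99 to 10.01 ± 2.51 CPM (SD, n = 5; log2 fold change -2.36 ± 0.20, SE, edgeR adjusted p = 8.40e-08), and Arc (-2.63) and Fos (-1.44) fell as well. Dusp1 was the 1 of the 9 called for the number term (range 0.89, adjusted p = 0.0479).

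Glucocorticoid responsive genes, a set that also follows the time of day in many tissues, went both ways. Of 8, 4 were higher, 3 lower and 1 not called, beside 33.1% higher and 37.5% lower of all genes. Tsc22d3 rose from 120.5 ± 5.91 to 463.1 ± 87.3 CPM (1.94 ± 0.13, adjusted p = 9.16e-09), whereas Fkbp5 fell from 34.3 ± 10.9 to 12.5 ± 7.18 CPM (-1.47 ± 0.41, adjusted p = 0.00477). For the number term 4 of 8 were called, against 4.26% of all genes, led by Zbtb16 (range 1.44, adjusted p = 0.00534). Zbtb16 was at 30.4, 28.7, 23.1, 9.84 and 12.3 CPM in the input and 29.9, 41.2, 22.1, 17.4 and 12.7 CPM in the fraction, in the order 88, 92, 976, 981 and 982. Of 4 tested sex-linked genes, 1 was called higher and 1 lower, and 1, Eif2s3y, for the number term (adjusted p = 0.0426).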
